A study of Mus musculus with 143 samples.

Results

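Apba2, Elavl3, Cd160, Stat4, Serpinb1c and Bicra are 6 protein-coding genes of 55573 gene identifiers counted in the poly(A) libraries and 55487 in the RiboMinus libraries. They were picked because their read counts were far lower in mouse oocytes lacking Dis3 than in control oocytes, so that fall is a description wherever it served to pick them. Apba2, Cd160 and Elavl3 were picked on poly(A) libraries of GV oocytes, Cd160 and Stat4 on GV3h oocytes, Serpinb1c on MII eggs, and Bicra on RiboMinus libraries of adult GV oocytes. No p-value is given for a gene in any comparison that contains a group used to pick it. All 6 genes passed the filter on low counts in every comparison.

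The study sequenced single oocytes from control females (ctr) and from mutant females made with CRISPR/Cas9 in which Dis3, Exosc10 or both genes (dcKO) were conditionally knocked out (cKO). The labels name neither the Cre driver nor the genotype of the controls, and do not say how many females gave the oocytes. Poly(A) libraries came from fully grown prophase oocytes with an intact germinal vesicle (GV), from GV oocytes after 3 h of culture (GV3h) and from ovulated metaphase II eggs of superovulated females (MII), with 8 control libraries per stage and 15, 16 and 16 Dis3 cKO libraries. RiboMinus libraries, made after depletion of ribosomal RNA and with no selection for a poly(A) tail, came in 6 groups of 8: adult GV oocytes of control and Dis3 cKO females, and day 20 (p20) oocytes of controls, of each single knockout and of dcKO. Lists of CUT&Tag peaks, 3 per group, came from pools of oocytes for the histone mark H3K27me3 and for phosphorylated RNA polymerase II (Pol II). The labels do not say which libraries share a female, so p-values measure the spread between these libraries only.

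DIS3 and EXOSC10 are the catalytic ribonucleases of the nuclear RNA exosome, which degrades and trims RNA in the nucleus. A growing oocyte transcribes and stores messenger RNA, then shuts transcription down as it becomes fully grown, and eggs rely on the stored RNA until the embryonic genome is switched on. None of the 6 genes is a textbook oocyte gene. Apba2 encodes a neuronal adaptor (Mint2) that binds the amyloid precursor protein, Elavl3 a neuronal RNA-binding protein (HuC) of the ELAV family, Cd160 a receptor of natural killer and T cells, Stat4 the transcription factor that acts below interleukin 12 in lymphocytes, Serpinb1c an intracellular serpin, and Bicra (GLTSCR1) a subunit of the noncanonical BAF chromatin remodelling complex.

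Each gene lay in a different place, on RefSeq coordinates of GRCm38.p6. Apba2 spanned chr7:64501560-64753878, Elavl3 chr9:22015005-22052146, Cd160 chr3:96798763-96829351 and Stat4 chr1:51987106-52107189. Serpinb1c spanned chr13:32881218-32940628 and Bicra chr7:15970671-16048146. The RefSeq promoter table listed 9 start sites for 5 of the genes, and the 250 bases before 5 of them are printed because H3K27me3 peaks at 3 of them differed between control and knockout lists, while the genes of the other 2, Cd160 and Stat4, varied together. Capitals mark 3 motifs: the TATA box letters TATAAA, the CAAT box letters CCAAT, and the GC box letters GGGCGG. They were searched on both strands and do not overlap each other, so ATTGG on the printed strand is the CAAT box read from the opposite one.
Elavl3, chr9:22052024-22052273, minus strand: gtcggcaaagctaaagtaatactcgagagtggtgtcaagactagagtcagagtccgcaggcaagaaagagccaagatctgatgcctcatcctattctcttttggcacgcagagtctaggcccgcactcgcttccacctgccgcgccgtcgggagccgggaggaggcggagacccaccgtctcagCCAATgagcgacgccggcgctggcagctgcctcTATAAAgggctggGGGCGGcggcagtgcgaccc
Apba2 start site 2, chr7:64501888-64502137, plus strand: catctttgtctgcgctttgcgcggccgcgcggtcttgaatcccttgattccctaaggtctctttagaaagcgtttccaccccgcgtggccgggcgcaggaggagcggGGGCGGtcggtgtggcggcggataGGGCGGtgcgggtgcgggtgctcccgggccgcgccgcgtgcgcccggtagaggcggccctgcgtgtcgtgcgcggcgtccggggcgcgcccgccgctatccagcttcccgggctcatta
Serpinb1c start site 1, chr13:32940601-32940850, minus strand: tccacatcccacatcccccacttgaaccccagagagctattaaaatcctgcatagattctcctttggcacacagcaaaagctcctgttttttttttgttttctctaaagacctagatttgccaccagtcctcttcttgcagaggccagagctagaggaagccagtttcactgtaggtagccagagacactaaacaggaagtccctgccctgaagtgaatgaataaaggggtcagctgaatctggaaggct
Cd160 start site 2, chr3:96814522-96814771, minus strand: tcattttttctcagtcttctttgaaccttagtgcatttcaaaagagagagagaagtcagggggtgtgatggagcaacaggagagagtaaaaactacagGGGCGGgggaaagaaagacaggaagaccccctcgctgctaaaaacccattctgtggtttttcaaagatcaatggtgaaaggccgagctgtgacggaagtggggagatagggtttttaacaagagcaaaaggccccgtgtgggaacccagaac
Stat4 start site 1, chr1:51986898-51987147, plus strand: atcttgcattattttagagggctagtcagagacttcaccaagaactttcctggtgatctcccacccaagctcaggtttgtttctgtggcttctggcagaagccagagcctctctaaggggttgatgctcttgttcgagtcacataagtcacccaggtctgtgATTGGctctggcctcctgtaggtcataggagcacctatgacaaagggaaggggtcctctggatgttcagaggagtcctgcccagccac

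The promoters ran from CpG-rich to CpG-free. Apba2 start site 2 held 38 CpG dinucleotides, more than 98.1% of 32851 RefSeq promoters of the same length, and Elavl3 held 20, more than 82.1% of them. Cd160 held 5 at each of its start sites, near the median of 6, Stat4 held 1 and 3, and Serpinb1c held 0 and 2. Elavl3 was the sole listed promoter of these genes with all 3 boxes, Serpinb1c start site 2 held TATAAA, and 4 of the 9 held none of the 3. Over all promoters the letters TATAAA occurred in 12.4%, CCAAT in 33.8% and GGGCGG in 32.7%, and a match in these letters is a description of the window.

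Totals of gene counts ran from 4843964 to 15412200 per poly(A) library (median 9510351) and from 8492102 to 35429028 per RiboMinus library (median 18164035). Levels are given as counts per 1000000 gene counts (CPM), and fold changes as log2 values from edgeR, which also corrects for composition (TMM). Dis3 averaged between 0.680 and 3.15 CPM in the groups labelled Dis3 cKO or dcKO and between 8.16 and 16.4 CPM in the others, and Exosc10 averaged 3.11 and 7.84 CPM in the Exosc10 cKO and dcKO groups against 113 ± 8.28 (SD, n = 8) in p20 controls. The 11 oocyte markers summed to between 8340 and 27710 CPM in every library. The 13 T and NK cell markers, which bear on Cd160 and Stat4, summed to at most 7.06 CPM, and the T cell gene Cd3e averaged at most 0.0902 CPM in any group, while 12 granulosa markers summed to between 19.8 and 152 CPM. The granulosa sums were also lower in Dis3 cKO poly(A) libraries, with medians of 83.6 in control and 47.6 CPM in knockout GV, 52.98 and 35.6 CPM in GV3h, and 73.7 and 38.9 CPM in MII, and their most abundant genes were Cyp19a1 or Kitl. In RiboMinus libraries their medians were 49.95 and 41.3 CPM in adult control and Dis3 cKO, and 65.9, 80.01, 72.1 and 42.2 CPM at p20 in controls, Dis3 cKO, Exosc10 cKO and dcKO. The part of granulosa RNA in the results for the 6 genes was not tested. The 9 neuron markers, which bear on Apba2 and Elavl3, summed to between 151 and 545 CPM, mostly Tubb3, with 5 or 6 of the 9 averaging under 1 CPM in every group. In single-oocyte libraries scaled to their own total, less of one RNA and more of the rest cannot be told apart, so the ERCC spike-in scaling is given where it changes a result.

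**Figure D1:**
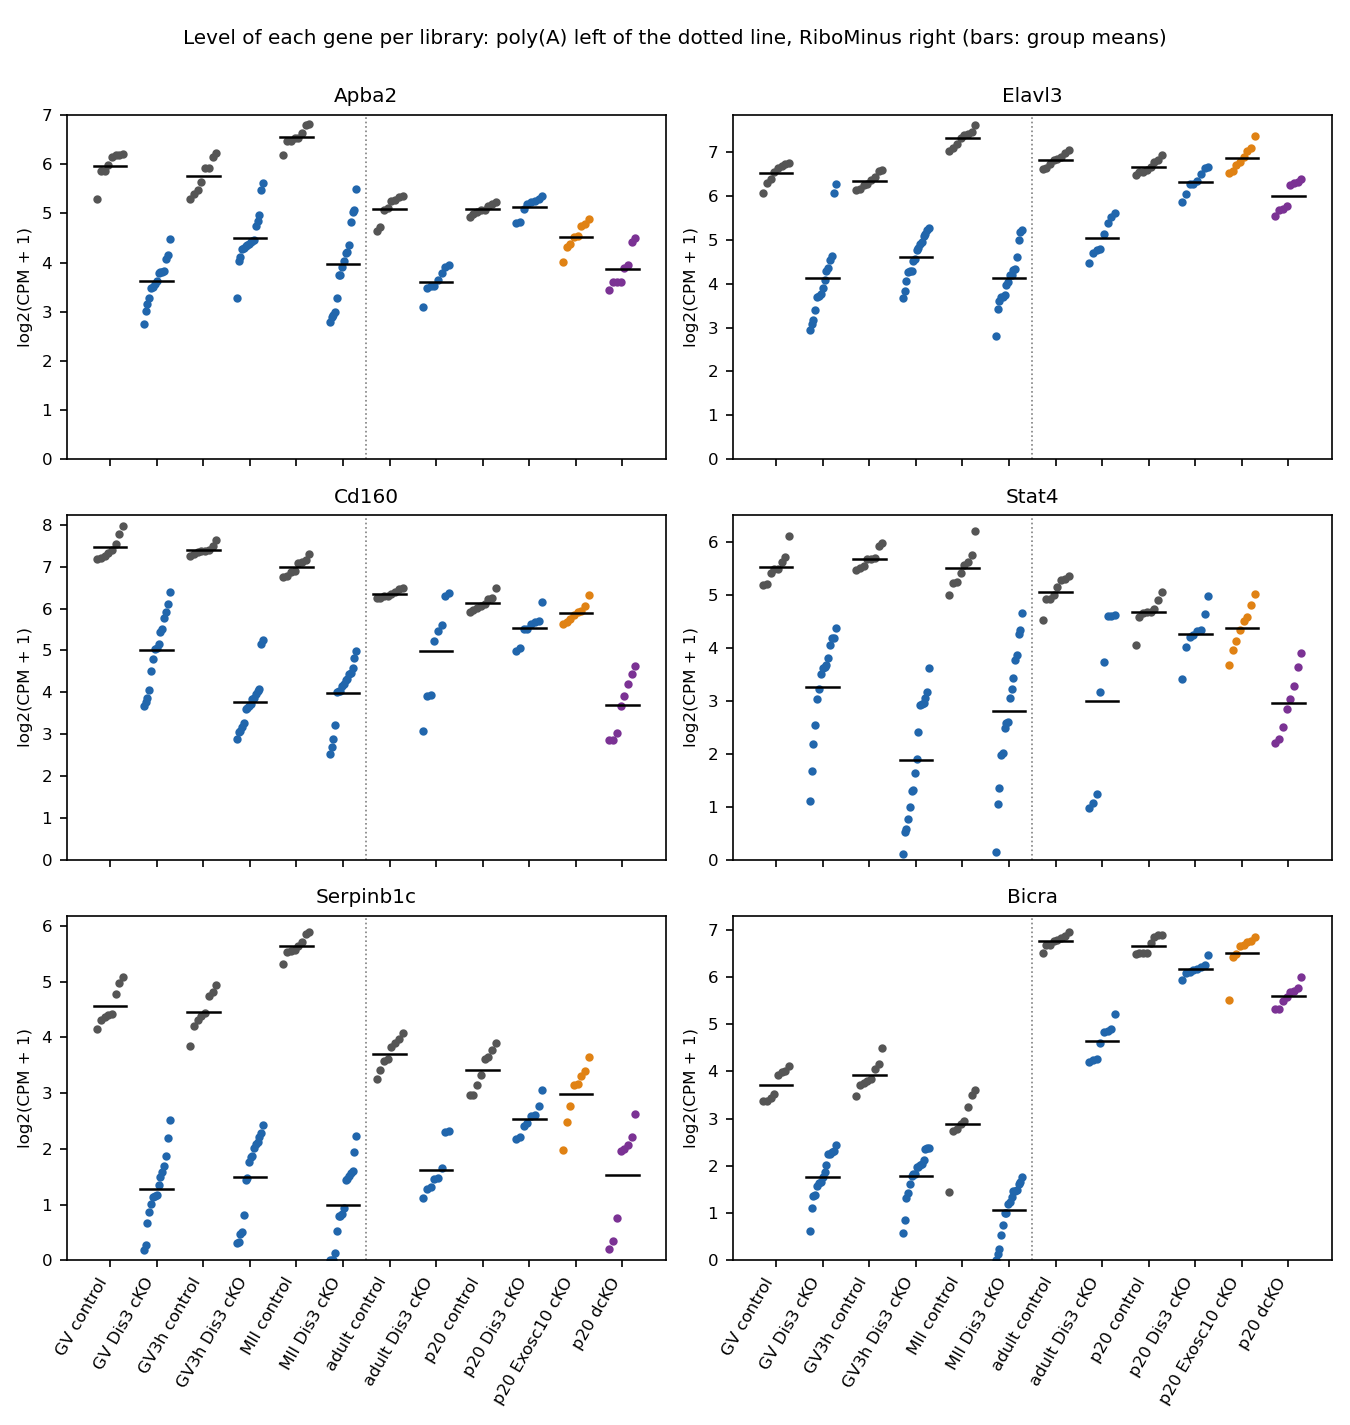
Level of each gene in every library as log2(CPM + 1), by group, with grey control, blue Dis3 cKO, orange Exosc10 cKO and purple dcKO points, and black bars at the mean of the log values. At the poly(A) stages and in adult RiboMinus libraries most blue points lie far below grey, and in p20 libraries all purple dcKO points lie below every control.

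The 2 neuronal genes, Apba2 and Elavl3, were measured in every control oocyte and were low in nearly every adult Dis3 cKO oocyte. In GV oocytes, where both were picked, Apba2 ran from 38.1 to 73.1 CPM in controls (median 66.0) and from 5.76 to 21.2 CPM in Dis3 cKO (median 11.3), with no overlap. Elavl3 ran from 66.2 to 107 CPM in GV controls (median 96.3) and from 6.65 to 76.9 CPM in GV Dis3 cKO (median 13.997). Here the groups overlapped through Dis3 cKO oocytes 6 and 8, at 66.5 and 76.9 CPM, and the other 13 knockout oocytes stayed at or below 23.9 CPM. Dis3 itself measured 3.68 and 6.91 CPM in oocytes 6 and 8, in a group that ran from 0.704 to 6.91 CPM, and the part of this in the overlap was not tested. The log2 fold changes in these libraries were -2.49 (SE 0.24) for Apba2 and -2.21 (SE 0.26) for Elavl3.

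The fall of Apba2 was also measured in libraries that took no part in picking it. In GV3h oocytes Apba2 ran from 38.4 to 74.5 CPM in controls (median 54.1) and from 8.68 to 48.1 CPM in Dis3 cKO (median 20.03), a log2 change of -1.37 (SE 0.23, edgeR adjusted p = 1.5e-06). All 16 knockout oocytes lay below the control mean, and 2 of them, at 43.3 and 48.1 CPM, lay within the control range. In MII eggs Apba2 ran from 71.6 to 111 CPM in controls (median 91.6) and from 5.88 to 44.0 CPM in Dis3 cKO (median 14.7), a log2 change of -2.52 (SE 0.23, edgeR adjusted p = 1e-14) with no overlap. In adult RiboMinus libraries Apba2 ran from 23.9 to 39.9 CPM in controls (median 35.2) and from 7.54 to 14.4 CPM in Dis3 cKO (median 11.01), a log2 change of -1.66 (SE 0.14, edgeR adjusted p = 2.2e-07) with no overlap.

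Elavl3 fell in the same 3 comparisons, with no overlap between groups in any of them. In GV3h oocytes it ran from 70.0 to 96.2 CPM in controls (median 79.4) and from 11.8 to 37.7 CPM in Dis3 cKO (median 24.5), a log2 change of -1.87 (SE 0.26, edgeR adjusted p = 1.8e-08). In MII eggs it ran from 130 to 196 CPM in controls (median 163) and from 6.06 to 36.3 CPM in Dis3 cKO (median 16.3), a log2 change of -3.20 (SE 0.26, edgeR adjusted p = 1.2e-16). In adult RiboMinus libraries it ran from 96.9 to 132 CPM in controls (median 114) and from 21.3 to 47.7 CPM in Dis3 cKO (median 30.4), a log2 change of -1.86 (SE 0.15, edgeR adjusted p = 1e-07). The largest of these 3 log2 changes of Elavl3 was the one in MII eggs.

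The 2 lymphocyte genes, Cd160 and Stat4, were also measured in every control oocyte. In GV controls Cd160 ran from 145 to 249 CPM (median 165), and in GV Dis3 cKO oocytes from 11.7 to 83.4 CPM (median 32.4). In GV3h controls it ran from 151 to 197 CPM (median 166), and in GV3h Dis3 cKO oocytes from 6.35 to 37.3 CPM (median 12.01). These libraries picked Cd160, and the log2 fold changes of -2.34 (SE 0.27) and -3.69 (SE 0.27) are a description. In MII eggs, not used to pick it, Cd160 ran from 107 to 156 CPM in controls (median 127) and from 4.77 to 30.8 CPM in Dis3 cKO (median 17.1), a log2 change of -3.04 (SE 0.27, edgeR adjusted p = 4.1e-15). The groups did not overlap at any of the 3 stages.

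Stat4 was picked in GV3h oocytes, where it ran from 43.4 to 62.2 CPM in controls (median 50.5) and from 0.0805 to 11.3 CPM in Dis3 cKO (median 2.44), a log2 change of -3.84 (SE 0.44). In GV oocytes it ran from 35.5 to 68.8 CPM in controls (median 44.4) and from 1.17 to 19.8 CPM in Dis3 cKO (median 11.4), a log2 change of -2.22 (SE 0.43, edgeR adjusted p = 4.5e-05). In MII eggs it ran from 31.2 to 73.1 CPM in controls (median 44.3) and from 0.103 to 24.5 CPM in Dis3 cKO (median 6.20), a log2 change of -2.51 (SE 0.42, edgeR adjusted p = 1.3e-06). Control and knockout ranges of Stat4 were separate at all 3 stages, while knockout oocytes of one stage differed from each other by more than a factor of 10.

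In adult RiboMinus libraries Cd160 and Stat4 split the Dis3 cKO oocytes by the tag in their titles, AM1713 or AM1757, with 4 libraries each. The labels do not say what the tags stand for, and no control carries either of them. Cd160 measured 7.47, 13.9, 14.4 and 36.5 CPM in the AM1713 libraries and 43.3, 47.5, 77.7 and 81.6 CPM in the AM1757 libraries, against 74.7 to 88.5 CPM in the 8 controls (median 79.2). Stat4 measured 0.976, 1.12, 1.38 and 8.07 CPM in the AM1713 libraries and 12.4, 23.3, 23.4 and 23.6 CPM in the AM1757 libraries, against 22.2 to 40.3 CPM in controls (median 32.9). All AM1713 values of both genes lay below all AM1757 values, and 2 AM1757 libraries for Cd160 and 3 for Stat4 reached the control range. Apba2 went the other way with no overlap, from 11.5 to 14.4 CPM in AM1713 and from 7.54 to 10.6 CPM in AM1757 libraries. Elavl3 averaged 39.9 ± 9.61 CPM (SD, n = 4) in AM1713 and 26.8 ± 5.41 CPM (SD, n = 4) in AM1757 libraries, with overlap. Stat4 was also separate between the 2 tags of the controls, from 22.2 to 30.99 CPM in AM1758 and from 34.8 to 40.3 CPM in AM1759. No share of all genes with separate title tags is given, so these splits are a description and do not set the genes apart.

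Taken over all 8 knockout libraries, the adult log2 changes were -1.05 (SE 0.37, edgeR adjusted p = 0.042) for Cd160, lower than the control mean in 7 of 8 libraries, and -1.52 (SE 0.55, edgeR adjusted p = 0.044) for Stat4, lower in 8 of 8. Leaving out 1 library at a time lost the call of Cd160 in 13 of 16 fits, with log2 changes between -1.29 and -0.89 and adjusted p from 0.013 to 0.068. The call of Stat4 was lost in 12 of 16 such fits, with log2 changes between -1.75 and -1.35 and adjusted p from 0.028 to 0.075, and in both genes leaving out any 1 of the 8 control libraries lost it. ERCC scaling, which put the median of all genes at -0.52, gave -1.78 for Cd160 (adjusted p = 2.6e-04) and -2.28 for Stat4 (adjusted p = 0.0011). With counts summed per title tag, 2 sums per group, the adjusted p rose to 0.39 for Cd160 and 0.41 for Stat4. The adult calls of the other genes were lost under these sums as well, with log2 changes of -1.71 for Apba2, -1.92 for Elavl3 and -2.57 for Serpinb1c and an adjusted p of 0.1 for each.

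Serpinb1c is a rodent relative of the protease inhibitor Serpinb1. In MII eggs, where it was picked, it ran from 39.0 to 58.3 CPM in controls (median 47.6) and from 0 to 3.73 CPM in Dis3 cKO (median 0.846), a log2 change of -5.43. Dis3 cKO eggs 1, 4 and 10 had a count of 0, which allows a level of up to 0.296, 0.273 and 0.292 CPM, counting error only. In GV oocytes Serpinb1c ran from 16.7 to 33.1 CPM in controls (median 20.3) and from 0.143 to 4.72 CPM in Dis3 cKO (median 1.26), a log2 change of -3.87 (SE 0.41, edgeR adjusted p = 1.2e-11). In GV3h oocytes it ran from 13.5 to 29.6 CPM in controls (median 20.3) and from 0.241 to 4.40 CPM in Dis3 cKO (median 2.50), a log2 change of -3.47 (SE 0.39, edgeR adjusted p = 4.8e-11).

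Adult RiboMinus libraries gave the same direction for Serpinb1c, with 8.60 to 15.9 CPM in controls (median 12.2) and 1.18 to 3.99 CPM in Dis3 cKO (median 1.77), a log2 change of -2.55 (SE 0.26, edgeR adjusted p = 1.8e-06). No control library of Serpinb1c overlapped a Dis3 cKO library in any of these 4 comparisons. Serpinb1c has close copies, Serpinb1a and Serpinb1b, and reads that fit more than 1 copy could have been split or dropped in counting.

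Bicra was picked on adult RiboMinus libraries, where it ran from 89.4 to 122 CPM in controls (median 108) and from 17.3 to 36.2 CPM in Dis3 cKO (median 25.4), a log2 change of -2.19 (SE 0.16). The libraries of the 3 poly(A) stages were not part of the comparison that picked it. Bicra ran from 9.33 to 16.3 CPM in GV controls (median 12.3) and from 0.543 to 4.42 CPM in GV Dis3 cKO (median 2.41), a log2 change of -2.33 (SE 0.32, edgeR adjusted p = 3.2e-08). It ran from 10.2 to 21.5 CPM in GV3h controls (median 13.1) and from 0.493 to 4.23 CPM in GV3h Dis3 cKO (median 2.74), a log2 change of -2.59 (SE 0.31, edgeR adjusted p = 4.3e-10). Neither pair of groups overlapped.

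In MII eggs Bicra ran from 1.74 to 11.1 CPM in controls (median 6.55) and from 0 to 2.40 CPM in Dis3 cKO (median 1.32), a log2 change of -2.60 (SE 0.32, edgeR adjusted p = 5.2e-10). The overlap there came from 1 control egg at 1.74 CPM, which 6 knockout eggs reached or exceeded. Dis3 cKO egg 15 had no Bicra count, which allows up to 0.356 CPM.

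Set against all genes, the share called lower by edgeR at adjusted p under 0.05 was 8.33% of 17389 genes in GV, 15.7% in GV3h and 14.8% in MII poly(A) libraries, and 12.4% of 15334 genes in adult RiboMinus libraries. Of the genes that the comparison had not picked, 3 of 3, 4 of 4, 5 of 5 and 5 of 5 were called lower, in that order. With the picked genes included, as a description, the median log2 changes of the 6 were -2.34, -3.03, -2.82 and -1.76, against 0.04, 0.07, 0.16 and 0.03 over all genes tested. Groups were separate for 5, 5, 5 and 4 of the 6, picked genes again included, against 0.759%, 2.02%, 1.18% and 2.34% of all genes with every knockout library below every control. ERCC scaling changed the split of all genes to 7.27% higher and 13.3% lower in GV, 17.5% and 10.6% in GV3h, 37.6% and 4.31% in MII, and 4.56% and 40.1% in adult oocytes, from 13.6%, 22.9%, 27.3% and 15.7% higher before it.

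**Figure D2:**
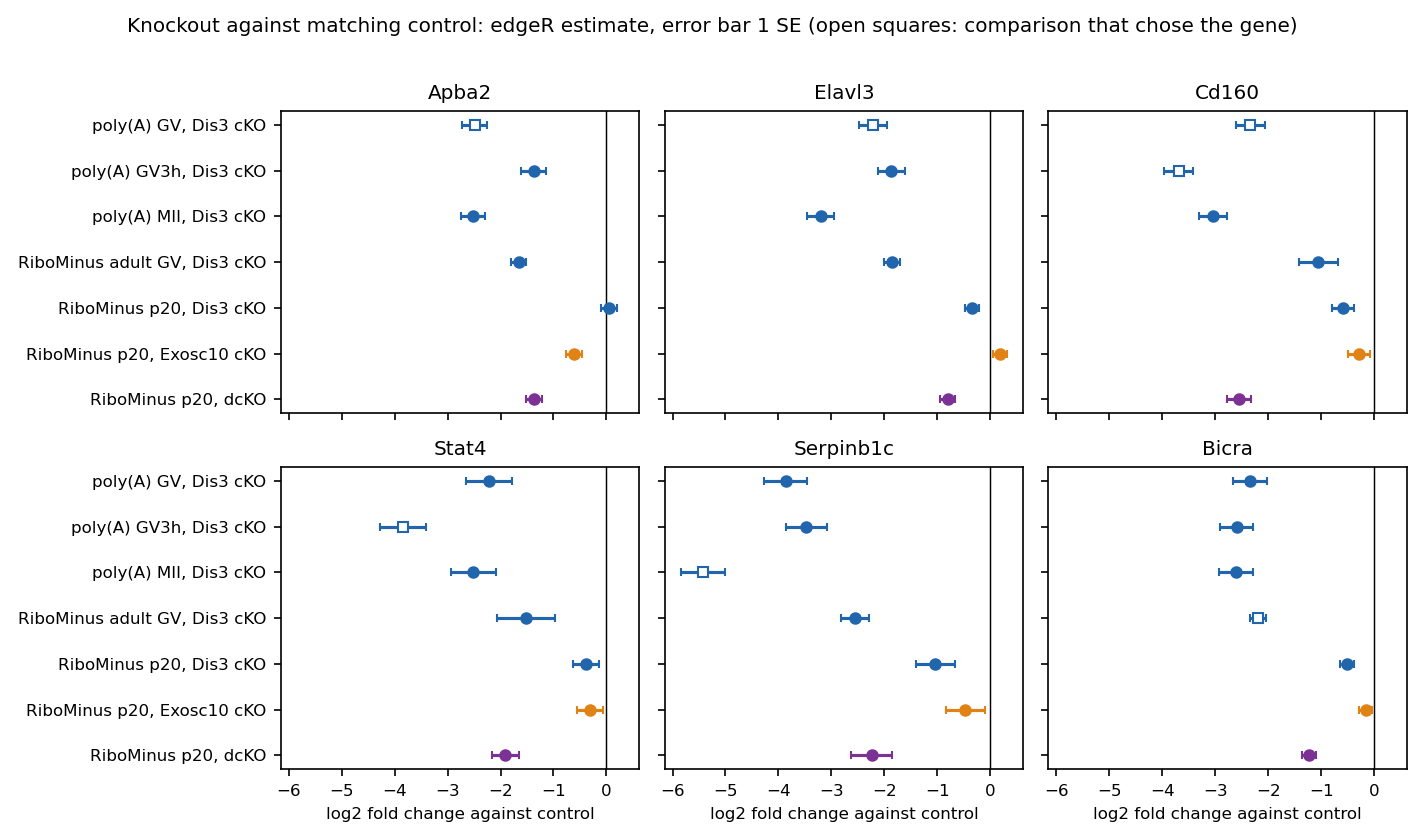
Log2 fold change of each gene in 7 knockout groups against the matching control, with bars of 1 SE from edgeR. Open squares are the comparisons that picked the gene, and the 3 p20 estimates share 8 control libraries. In p20 oocytes the estimates of the single knockouts lie between -1.03 and 0.18, while those of dcKO run from -2.55 to -0.81.

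At p20, 1 of the 6 genes, Bicra, was called lower in oocytes lacking Dis3 alone, where 3.76% of 15882 genes were called lower, and the other 5 did not pass. The 3 knockout groups of this age were compared with the same 8 control libraries. It ran from 88.6 to 118 CPM in p20 controls (median 96.8) and from 60.1 to 86.8 CPM in p20 Dis3 cKO (median 70.2), without overlap, as for 1.61% of all genes, a log2 change of -0.51 (SE 0.13, edgeR adjusted p = 0.0089) and lower in 8 of 8 libraries. With counts summed per title tag Bicra did not pass (-0.51, adjusted p = 0.16). Apba2 measured 29.5 to 36.6 CPM in controls (median 32.6) and 27.1 to 39.9 CPM in p20 Dis3 cKO (median 36.1), a log2 difference of 0.05 (SE 0.15, edgeR adjusted p = 0.89).

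The other 4 genes had lower medians in p20 Dis3 cKO and did not pass the test. Cd160 ran from 59.8 to 89.8 CPM in p20 controls (median 66.7) and from 30.6 to 70.7 CPM in p20 Dis3 cKO (median 46.9), a log2 difference of -0.59 (SE 0.21, edgeR adjusted p = 0.081). Only replicate 2_3, at 70.7 CPM, lay in the control range, and without it Cd160 passed (-0.73, edgeR adjusted p = 0.023). The log2 differences were -1.03 for Serpinb1c (SE 0.38, edgeR adjusted p = 0.092), -0.34 for Elavl3 (SE 0.14, edgeR adjusted p = 0.13) and -0.39 for Stat4 (SE 0.24, edgeR adjusted p = 0.39). Scaling to ERCC counts, which put the median of all genes at -0.31, gave calls for Cd160 (-0.92, adjusted p = 0.02) and Serpinb1c (-1.39, adjusted p = 0.033) beside Bicra, and DESeq2 gave one for Serpinb1c (adjusted p = 0.045). A fit of only these 2 groups called Cd160, Elavl3 and Serpinb1c as well (adjusted p = 0.012, 0.045 and 0.0014).

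Loss of Exosc10 alone lowered Apba2, where 3.5% of genes were called lower. Apba2 ran from 15.2 to 28.8 CPM in Exosc10 cKO (median 22.1), below every p20 control, as for 0.951% of all genes, a log2 change of -0.61 (SE 0.15, edgeR adjusted p = 0.0078) in 8 of 8 libraries. The other 5 genes did not pass, with log2 differences of 0.18 for Elavl3, -0.16 for Bicra, -0.29 for Cd160, -0.31 for Stat4 and -0.47 for Serpinb1c, and adjusted p of at least 0.47. The call of Apba2 was lost with ERCC scaling (-0.62, adjusted p = 0.18) and with counts summed per title tag (-0.61, adjusted p = 0.12).

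With both ribonucleases gone, all 6 genes fell at p20, where 27.1% of genes were called lower by edgeR and 7.08% had every dcKO library below every control. All 6 had separate groups, and their median log2 change was -1.64 against -0.01 over all genes. Cd160 ran from 6.27 to 23.6 CPM in dcKO (median 12.9), a log2 change of -2.55 (SE 0.22, edgeR adjusted p = 5e-11). Serpinb1c ran from 0.158 to 5.18 CPM (median 2.96) against 6.79 to 14.02 CPM in controls (median 10.1), a log2 change of -2.24 (SE 0.40, edgeR adjusted p = 1.3e-05). Stat4 ran from 3.62 to 14.1 CPM (median 6.72) against 15.8 to 32.6 CPM (median 24.7), a log2 change of -1.91 (SE 0.26, edgeR adjusted p = 1.5e-07).

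Smaller falls in dcKO were those of Apba2, Bicra and Elavl3. Apba2 ran from 9.82 to 21.5 CPM (median 12.5), a log2 change of -1.37 (SE 0.15, edgeR adjusted p = 5.1e-09). Bicra ran from 38.7 to 62.7 CPM (median 48.5), a log2 change of -1.22 (SE 0.13, edgeR adjusted p = 2.6e-09). Elavl3 ran from 45.8 to 83.3 CPM (median 64.9) against 88.4 to 122 CPM in controls (median 97.7), a log2 change of -0.81 (SE 0.14, edgeR adjusted p = 7.1e-06). All 8 dcKO libraries were below the control mean for each of the 6 genes.

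The dcKO oocytes were also compared with each single knockout directly. All 6 genes were lower in dcKO than in p20 Dis3 cKO by edgeR, where 25.5% of genes were, with log2 differences of -1.43 for Apba2, -1.96 for Cd160, -0.47 for Elavl3, -1.52 for Stat4, -1.21 for Serpinb1c and -0.71 for Bicra. Against Exosc10 cKO, where 25.0% of genes were lower, they were -0.77, -2.27, -0.99, -1.59, -1.77 and -1.06 in the same order. Adjusted p was at most 0.01 in all 12 comparisons. Groups were separate for 2 genes, Apba2 and Cd160, against Dis3 cKO (5.48% of all genes) and for 2, Cd160 and Elavl3, against Exosc10 cKO (4.47% of all genes). With ERCC scaling, which put the median of all genes at 0.26 between dcKO and Dis3 cKO, Elavl3 (-0.18), Serpinb1c (-0.86) and Bicra (-0.45) no longer passed there.

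The size of the Dis3 effect differed with age for 3 genes that could be tested, where 9.32% of 17267 genes had a different effect by edgeR. The effect in adult GV minus that at p20 was -1.73 on the log2 scale for Apba2 (SE 0.20, edgeR adjusted p = 1.7e-08), -1.54 for Elavl3 (SE 0.20, edgeR adjusted p = 1.3e-07) and -1.53 for Serpinb1c (SE 0.49, edgeR adjusted p = 0.036). It was -0.46 for Cd160 (edgeR adjusted p = 0.56) and -1.13 for Stat4 (edgeR adjusted p = 0.21), which did not pass, and -1.70 for Bicra, which adult libraries picked. For Serpinb1c the difference did not pass with ERCC scaling (-1.65, adjusted p = 0.084) or with title-tag sums (-1.54, adjusted p = 0.13). Age and the preparation of each batch cannot be told apart, since the labels do not say which oocytes were processed together.

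In control oocytes the log2 differences, adult minus p20, lay between 0.07 and 0.43 over the 6 genes. Of the 5 that could be tested, edgeR called 0, with 0 at an unadjusted p under 0.05, where 19.1% of all genes were called in either direction, and DESeq2 called 0 of these 5. With ERCC scaling, which put the median of all genes at -1.69, these signs turned: the 5 were called lower in adult controls, between -1.62 and -1.23, and Bicra was at -1.59. That scaling called 14797 of 17267 genes lower in adult controls. Among Dis3 cKO oocytes, adult levels were lower than p20 levels for Apba2 (-1.66, edgeR adjusted p = 2.5e-12), Elavl3 (-1.35, edgeR adjusted p = 3.3e-10) and Serpinb1c (-1.19, edgeR adjusted p = 0.0061), where 37.5% of genes were called in either direction. Cd160 (-0.22, edgeR adjusted p = 0.58) and Stat4 (-0.71, edgeR adjusted p = 0.16) did not pass. With ERCC scaling, which put the median of all genes at -1.86, both did (-2.30, adjusted p = 8.8e-10, and -2.79, adjusted p = 6.5e-09). It called 14004 of 17267 genes lower in adult Dis3 cKO oocytes. Adult and p20 ranges were separate for Apba2 and Elavl3 and overlapped for Serpinb1c. No share of all genes with separate ranges is given for comparisons between ages or stages, so these ranges are a description.

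Between GV3h and MII controls 57.3% of genes were called in either direction by edgeR. Of the 3 members that could be tested 2 were called, so these calls do not set the members apart from other genes. Relative to all genes Apba2 was higher in control MII eggs by 1.07 (SE 0.28, edgeR adjusted p = 6.4e-04), in 8 of 8 eggs, and Elavl3 by 1.26 (SE 0.31, edgeR adjusted p = 3.5e-04), in 8 of 8 eggs and with no overlap. Serpinb1c was higher by 1.46, a description because MII libraries picked it, and Bicra differed by -0.76 (edgeR adjusted p = 0.077). ERCC scaling put the median of all genes at -2.26. The directions of Apba2 and Elavl3 turned, to -0.98 (adjusted p = 0.009) and -0.82 (adjusted p = 0.021), and Bicra kept its direction and passed (-2.89, adjusted p = 2.4e-08).

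In Dis3 cKO oocytes the same step, where 68.2% of genes were called by edgeR, gave log2 differences that did not pass for Apba2 (-0.08, edgeR adjusted p = 0.73) and Elavl3 (-0.08, edgeR adjusted p = 0.78). With ERCC scaling, which put the median of all genes at -1.98, both were lower in MII, by -1.80 for Apba2 (adjusted p = 3.1e-09) and -1.93 for Elavl3 (adjusted p = 1.3e-10). Bicra was lower in MII knockout eggs (-0.76, SE 0.28, edgeR adjusted p = 0.014), and by -2.42 with ERCC scaling (adjusted p = 3.8e-10). The Dis3 effect was larger in MII than in GV3h by -1.15 for Apba2 (SE 0.34, edgeR adjusted p = 0.014) and -1.34 for Elavl3 (SE 0.38, edgeR adjusted p = 0.011), where 14.2% of genes had a different effect. With ERCC scaling these differences were -0.81 (adjusted p = 0.19) and -1.10 (adjusted p = 0.057) and did not pass. For Bicra the difference was -0.01 (edgeR adjusted p = 1.0).

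Between MII and GV, Stat4 and Bicra could be tested. Among controls, where 58.5% of genes were called in either direction by edgeR, neither passed (0.26, edgeR adjusted p = 0.67, and -0.54, edgeR adjusted p = 0.21). ERCC scaling, which put the median of all genes at -2.12, turned Stat4 to -1.58 (adjusted p = 0.0082) and gave -2.40 for Bicra (adjusted p = 1.3e-06). Among Dis3 cKO oocytes, where 63.3% were called, Bicra was lower in MII (-0.81, SE 0.29, edgeR adjusted p = 0.012) and Stat4 did not pass (-0.03, edgeR adjusted p = 0.95). With ERCC scaling, which put the median at -1.50, they were at -1.97 and -1.08 (adjusted p = 1.5e-07 and 0.013). The Dis3 effect differed between MII and GV for 13.2% of genes, and by -0.29 for Stat4 (edgeR adjusted p = 0.81) and -0.27 for Bicra (edgeR adjusted p = 0.76), which did not pass and turned to 0.50 and 0.43 with ERCC scaling (adjusted p = 0.59 and 0.56).

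In CPM, the order of the 3 poly(A) control groups was MII, GV, GV3h for Apba2 (94.0 ± 13.1, 62.8 ± 11.9 and 54.5 ± 13.5 CPM), Elavl3 (160 ± 22.1, 91.9 ± 14.8 and 81.3 ± 9.94 CPM) and Serpinb1c (49.0 ± 6.42, 23.2 ± 6.01 and 21.6 ± 5.44 CPM; SD, n = 8 in each). For all 3 genes GV and GV3h differed by less than the larger of their SDs. That order did not hold with ERCC scaling: the log2 differences of MII from GV were then -1.002, -0.79 and -0.50 for Apba2, Elavl3 and Serpinb1c, and those from GV3h -0.98, -0.82 and -0.60, which put MII last. Cd160 had the order GV, GV3h, MII (179 ± 37.4, 169 ± 14.5 and 128 ± 17.4 CPM), and Bicra GV3h, GV, MII (14.4 ± 3.53, 12.4 ± 2.92 and 7.03 ± 2.96 CPM), again with the first 2 apart by less than the larger SD. Stat4 averaged between 46.0 ± 13.1 and 51.1 ± 6.95 CPM at all 3 stages.

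Between GV and GV3h Dis3 cKO oocytes, the medians of Cd160 and Stat4 were lower after culture and that of Apba2 was higher. Cd160 had a median of 32.4 CPM in GV and 12.01 CPM in GV3h knockout oocytes, Stat4 had 11.4 and 2.44 CPM, and Apba2 had 11.3 and 20.03 CPM. These libraries picked the genes, so no test is given. Serpinb1c and Bicra did not pass in controls (-0.10 and 0.21, edgeR adjusted p = 0.94 and 0.84), where 2.71% of genes were called in either direction, or in Dis3 cKO oocytes (0.29 and -0.05, edgeR adjusted p = 0.64 and 0.93), where 17.3% were. With ERCC scaling the first and the last of these turned sign (0.10 and 0.44) and none passed. The Dis3 effect differed between GV3h and GV for 2.04% of genes by edgeR, and for Serpinb1c and Bicra the differences did not pass (0.39, edgeR adjusted p = 0.84, and -0.26, edgeR adjusted p = 0.87).

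Between the 2 assays Bicra stood apart in level. It averaged 12.4 ± 2.92 CPM in poly(A) and 107 ± 9.90 CPM in RiboMinus libraries of control GV oocytes (SD, n = 8 each), a ratio of 8.64. That ratio, on the scale of CPM + 1, was higher than that of 99.7% of 14752 genes tested in both assays. Elavl3 had a ratio of 1.23, higher than 70.2% of genes, and the ratios of Stat4, Apba2, Serpinb1c and Cd160 were 0.710, 0.537, 0.528 and 0.452. The log2 change of Bicra in GV Dis3 cKO oocytes was -2.33 in poly(A) and -2.19 in RiboMinus libraries, and that of Cd160 was -2.34 and -1.05. Assay and kit differ together between these libraries and cannot be told apart, and the labels do not say whether the 2 assays share animals.

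Within a group, Cd160 and Stat4 went up and down together from oocyte to oocyte. The correlation of their deviations from group means in log2(CPM + 1) was 0.617 over 71 poly(A) libraries, which placed Stat4 in position 3 among 17388 genes, and 0.858 over 48 RiboMinus libraries, position 1 of 17266. These libraries share their groups' depth and the adult title tags, so the values describe these libraries. The next closest pair in poly(A) libraries was Elavl3 and Serpinb1c at 0.461, position 430, and Elavl3 went against Stat4 at -0.341 in poly(A) and -0.556 in RiboMinus libraries. Over the genes as a set, falling together between groups did not mean varying together within a group: Apba2 and Cd160 had 0.627 over all poly(A) libraries and -0.235 within groups.

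**Figure D3:**
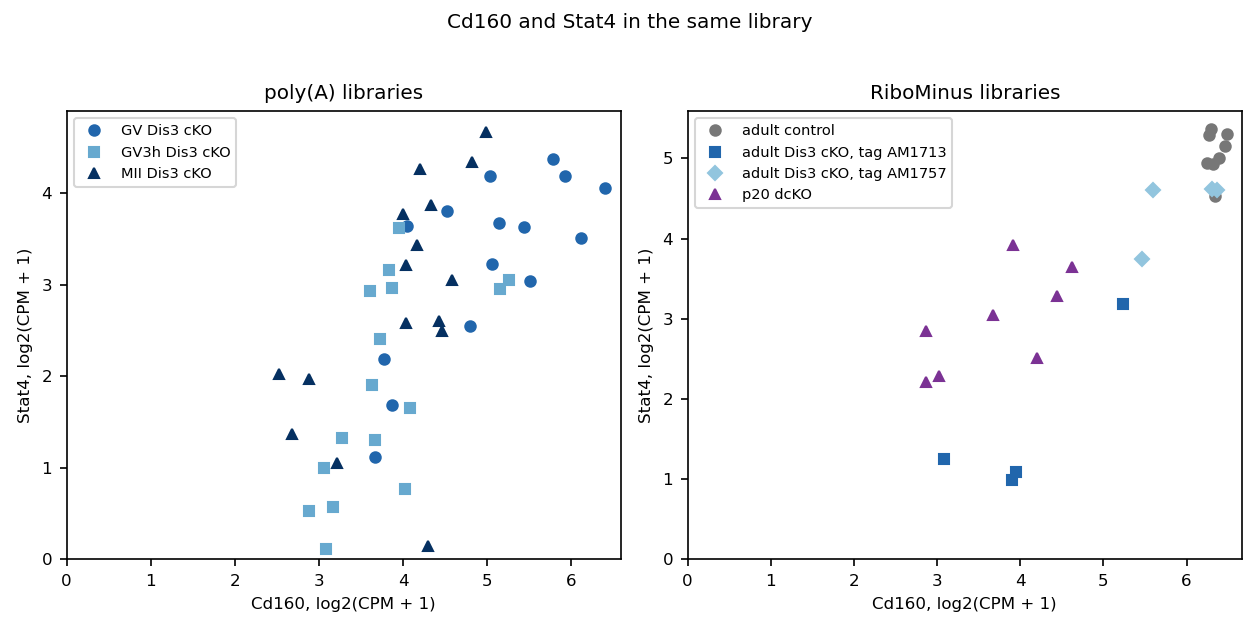
Cd160 against Stat4 in the same library, both as log2(CPM + 1), for the poly(A) Dis3 cKO groups (left) and for adult RiboMinus groups and p20 dcKO (right). On the right, the 4 libraries of tag AM1713 lie low for both genes, and those of tag AM1757 lie between them and the controls or within the control range.

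Over all libraries the genes most like each member included other members. In poly(A) libraries (n = 71) the closest to Cd160 was Stat4 (r = 0.897), the closest to Apba2 was Serpinb1c (0.856), and Elavl3 and Serpinb1c were second to each other's list (0.912). The closest to Elavl3 was Gm49318 (0.926), to Stat4 Gm28177 (0.911), to Serpinb1c Gda (0.913), which encodes guanine deaminase, and to Bicra Slc7a1 (0.873), a transporter of cationic amino acids. In RiboMinus libraries (n = 48) the closest were Map4 for Apba2 (0.855), Prrg1 for Cd160 (0.890), Bicra for Elavl3 (0.864), C86187 for Stat4 (0.9004), Tex2 for Serpinb1c (0.824) and Tert, the telomerase reverse transcriptase, for Bicra (0.913). These r values come from libraries that share the same groups and are descriptions.

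Of the genes next to the members, some were called and in both directions. Pdzk1, a scaffold protein gene that begins 105 bp from Cd160, fell by 0.37 in GV and in GV3h and by 0.65 in dcKO (edgeR adjusted p = 0.0047, 0.002 and 2.4e-08), far less than Cd160, and Rnf115 on the other side rose by 0.49 in dcKO (edgeR adjusted p = 3.1e-04, and 0.40 with adjusted p = 0.092 under ERCC scaling). The GV3h change of Pdzk1 did not pass with ERCC scaling (-0.38, adjusted p = 0.16). Fam189a1, 2213 bp from Apba2, rose by 1.52 in p20 Dis3 cKO (edgeR adjusted p = 6e-06), where Apba2 did not pass. Fam189a1 fell by 1.17 in Exosc10 cKO (edgeR adjusted p = 4.7e-04, and 0.06 with ERCC scaling) and by 2.02 in dcKO (edgeR adjusted p = 1e-08), both comparisons in which Apba2 was called lower. Fam189a1 did not pass at the poly(A) stages or in adult RiboMinus libraries, where Apba2 was also lower in Dis3 cKO. Its log2 differences there were -0.27 in GV, 0.10 in GV3h, 0.17 in MII and -0.26 in adult oocytes (edgeR adjusted p = 0.59, 0.81, 0.67 and 0.58). Zfp653 near Elavl3 fell by 0.51 in GV and 0.48 in dcKO (edgeR adjusted p = 0.0011 and 0.002), and Zfp541 near Bicra rose by 0.68 in MII (edgeR adjusted p = 1.3e-04).

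Some reads of these genes cannot be assigned with certainty, because RefSeq places Gm3940 and Gm31812 over Stat4, Gm18311 over Serpinb1c, and Gm38948 and Gm32059 over Bicra, and the sources used here do not say whether reads were counted by strand. Gm31812, an lncRNA at the end of Stat4, rose by 1.38 in adult Dis3 cKO (edgeR adjusted p = 0.028, and 0.17 with ERCC scaling) and 2.53 in dcKO (edgeR adjusted p = 0.002), where Stat4 fell. At the poly(A) stages, where Stat4 was also lower in Dis3 cKO, Gm31812 did not pass. Its log2 differences there were 0.70 in GV, 1.15 in GV3h and -0.64 in MII (edgeR adjusted p = 0.42, 0.1 and 0.37).

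Relatives and partners of the members were called in both directions, and these counts are set beside all genes, of which 27.3% were called higher and 14.8% lower in MII, 15.7% and 12.4% in adult Dis3 cKO, and 26.6% and 27.1% in dcKO. With ERCC scaling those shares were 37.6% and 4.31% in MII, 4.56% and 40.1% in adult Dis3 cKO, and 17.8% and 20.4% in dcKO. Of 2 ELAV genes tested beside Elavl3, the ubiquitous Elavl1 rose by 0.47 in MII (edgeR adjusted p = 4.9e-04) and by 0.79 in dcKO (edgeR adjusted p = 3.6e-07), and Elavl2 fell by 0.30 in MII (edgeR adjusted p = 0.0033) and by 0.47 in dcKO (edgeR adjusted p = 1.7e-05). With ERCC scaling the direction of Elavl2 in MII turned and the call was lost (a log2 difference of 0.06, adjusted p = 0.79). Of 9 tested STAT, JAK and interleukin 12 receptor genes beside Stat4, 2 rose and 2 fell in MII, led by Stat6 (0.90, edgeR adjusted p = 7.6e-06), and 3 rose and 2 fell in dcKO. In adult oocytes 1 rose, Stat6 (0.57, edgeR adjusted p = 2.3e-05, a call lost with ERCC scaling at 0.04), and 1 fell. The median log2 change of those 9 was -0.17 in MII and -0.12 in dcKO. With ERCC scaling 3 of the 9 rose and 1 fell in MII, 0 rose and 5 fell in adult oocytes, and 2 rose and 1 fell in dcKO.

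Of 9 tested partners of Apba2, 2 fell and 1 rose in adult oocytes, led by its paralogue Apba1 (-1.01, SE 0.13, edgeR adjusted p = 2.5e-05), which also fell by 0.89 in dcKO (edgeR adjusted p = 5.9e-04). In MII 2 rose and 2 fell, led by Cask (-0.76, edgeR adjusted p = 2.6e-06), a synaptic scaffold, which became -0.45 (adjusted p = 0.051) with ERCC scaling. Under that scaling 2 of these 9 partners rose and 0 fell in MII, and 0 rose and 4 fell in adult oocytes. Of 14 tested BAF subunits beside Bicra, 3 fell and none rose in adult oocytes, at a median of -0.06, led by the ATPases Smarca4 (-0.62, SE 0.07, edgeR adjusted p = 1e-05) and Smarca2 (-0.53, SE 0.08, edgeR adjusted p = 6.3e-05). In poly(A) libraries 15 were tested, of which 0 rose and 2 fell in GV, 3 rose and 2 fell in GV3h, and 1 rose and 5 fell in MII. Smarca4 was among those that fell in MII (-0.73, edgeR adjusted p = 3.2e-06), which became -0.35 (adjusted p = 0.17) with ERCC scaling. In dcKO 3 of the 14 rose and 7 fell, at a median of -0.21. With ERCC scaling the BAF counts were 0 higher and 11 lower in adult oocytes, 3 higher and 1 lower in MII, and 2 higher and 5 lower in dcKO, so the balance of calls in MII turned. Of clade B serpins, 4 to 8 were tested per comparison, and Serpinb1a rose in adult Dis3 cKO (2.31, edgeR adjusted p = 0.031), from a mean of 0.138 to one of 0.763 CPM. Serpinb9, an inhibitor of granzyme B, fell in adult Dis3 cKO (-0.80, edgeR adjusted p = 0.0073). In dcKO 1 of 4 rose and 3 fell, and Serpinb9 averaged 4.70 ± 1.81 CPM in controls and 0.102 ± 0.192 CPM in dcKO (SD, n = 8 each), with a count of 0 in 6 of the 8 dcKO libraries (edgeR adjusted p = 5e-09). With ERCC scaling the serpin counts were 1 higher and 2 lower in adult oocytes and 0 higher and 3 lower in dcKO.

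The Cd160 list, its ligand and partner genes with both neighbours, had 3 or 4 of 7 tested, and in poly(A) and adult libraries no gene of it other than Pdzk1 was called. In dcKO Cd244a, another natural killer cell receptor, fell by 2.99 (edgeR adjusted p = 3e-06), from a mean of 2.698 to one of 0.364 CPM.

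CUT&Tag peaks at the start sites differed between lists in opposite directions for different genes. H3K27me3, the mark of Polycomb repression, had a peak within 1000 bp of the Elavl3 start site in 3 of 3 adult control and 3 of 3 p20 control lists, in 0 of 3 adult Dis3 cKO lists and in 1 of 3 dcKO lists. Both Apba2 start sites had one in 2 of 3 adult and 3 of 3 p20 control lists and in 0 of 3 lists of each knockout. Serpinb1c start site 1 went the other way, with 0 of 3 in both control groups, 3 of 3 in adult Dis3 cKO and 2 of 3 in dcKO. These are the CpG-rich Elavl3 and Apba2 promoters and the CpG-free Serpinb1c promoter printed above. The differences were those of the start site windows. In its gene body Apba2 had an H3K27me3 peak in 3 of 3 lists of every group, both knockouts included. The Elavl3 gene body had one in 3 of 3 lists of each control group, 2 of 3 adult Dis3 cKO and 1 of 3 dcKO lists. The Serpinb1c gene body had one in 2 of 3 adult control lists and in 3 of 3 lists of the other groups.

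Across 32851 RefSeq start sites, a peak in all 3 lists was found at 11.4% in adult control, 18.9% in p20 control, 15.2% in adult Dis3 cKO and 16.5% in dcKO. The knockout lists held more H3K27me3 peaks in total, 224934 to 276316 per adult Dis3 cKO list and 244827 to 299716 per dcKO list against 87394 to 202628 and 151535 to 159895 in controls. The part of these totals in the counts at Elavl3, Apba2 and Serpinb1c was not tested. Gene bodies with an H3K27me3 peak in all 3 lists made up 26.5%, 31.4%, 32.9% and 36.3% of 21887 genes in the same order of groups. No share of all start sites that differ between control and knockout lists is given, so the differences at these genes are a description. With 3 lists against 3, an exact test cannot go below 0.10, and no p is given. Stat4 start site 2 had H3K27me3 peaks in 1 of 3 adult Dis3 cKO and 2 of 3 dcKO lists and none in controls, and Stat4 start site 1 had one in 1 of 3 adult control lists and in none of the other groups. Serpinb1c start site 2 had one in 2 of 3 dcKO lists and Cd160 start site 2 in 1 of 3, with none in the other groups.

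Pol II peaks were rare at start sites, with 0.399%, 1.16% and 2.28% of all sites marked in 3 of 3 lists of adult control, adult Dis3 cKO and p20 control. Elavl3 had one in 0 of 3 adult control, 2 of 3 adult Dis3 cKO and 2 of 3 p20 control lists, and Cd160 start site 2 in 1, 2 and 0 of 3. In gene bodies, Bicra had a Pol II peak in 0 of 3 adult control and 3 of 3 adult Dis3 cKO lists, as did Serpinb1c, and both genes had one in 3 of 3 p20 control lists. Cd160 went from 1 of 3 adult control to 3 of 3 adult Dis3 cKO lists and Stat4 from 1 to 2, with 1 and 3 of 3 in p20 control, while Apba2 and Elavl3 had one in 3 of 3 lists of all 3 groups. Gene bodies with a peak in all 3 lists made up 15.3% of 21887 genes in adult control, 27.2% in adult Dis3 cKO and 33.2% in p20 control. Adult Dis3 cKO lists held 30311 to 122606 Pol II peaks and adult control lists 19697 to 35843, and the part of that gap in these counts was not tested. The share of all genes whose Pol II counts differ in this way between groups is not given, so these counts are a description.

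**Figure D4:**
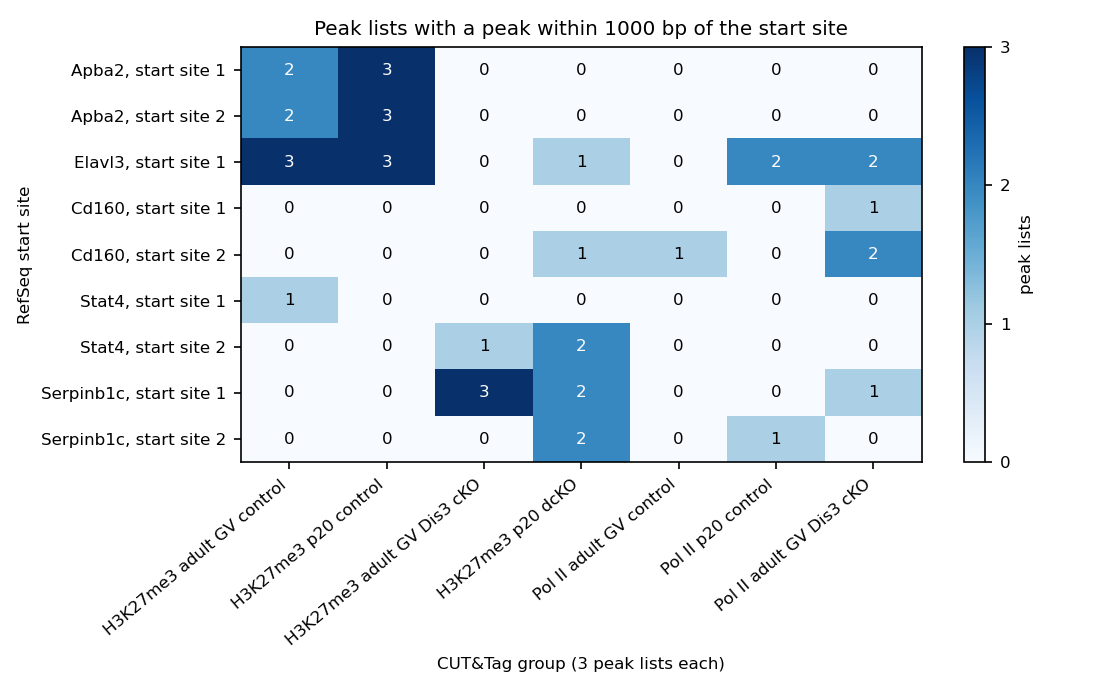
Number of peak lists, of 3 per group, with a peak within 1000 bp of each listed start site, for H3K27me3 (4 groups) and Pol II (3 groups). H3K27me3 at the start sites of Apba2 and Elavl3 is present in most or all control lists and absent or rare in the knockout lists, and Serpinb1c start site 1 shows the reverse. Gene bodies are not shown.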

How the data were processed

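The submitters' processing notes name cutadapt 2.5, STAR 2.7.2a, HTSeq 0.9.1 and SEACR, and the build mm10, without their roles. The counts deposited by the authors are whole reads per gene, including ERCC spike-ins, which were left out of library totals. The authors' peak lists hold a signal value per peak, from a fixed number of reads drawn at random in each library, with duplicates kept, as the design text of the series states. The annotation release is not given in the sources used here.

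Groups were taken from sample titles. The 6 genes and all lists were chosen with earlier results of these data known. Counts were tested with edgeR 4.0.16 (TMM, filterByExpr, quasi-likelihood F test, Benjamini-Hochberg over all genes tested, threshold 0.05) in R 4.3.3: all 6 poly(A) groups in 1 fit, the 2 adult groups in another, the 4 p20 groups in another, and all 6 RiboMinus groups for adult against p20. The tests were checked on simulated counts. The SE is the log2 estimate divided by the root of F. Alternatives were DESeq2 1.42.0, DESeq2 size factors, ERCC scaling, no filter, 2 groups per fit, title-tag sums, replicate blocks and leaving out libraries. Named genes were the 6 genes, the targeted genes, the 2 genes with the smallest adjusted p in each family or partner list per comparison, the nearest and overlapping RefSeq genes (1 is not reported here), and the 2 genes of highest Pearson r per assay. Where a count differs from that rule (H3K27me3 at the start sites of Stat4 and at start site 2 of Serpinb1c and Cd160, H3K27me3 and Pol II in gene bodies), it was chosen after its values were seen. Peaks were compared by any overlap of at least 1 bp with a start site window or RefSeq gene body (GRCm38.p6). Symbols were found for 99.7% of poly(A) and 99.4% of RiboMinus gene identifiers.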

Additional observations from a re-analysis of the deposited data

Results flagged for a closer look

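Of 54 groups of 8 libraries (6 genes in 9 groups), 2 had a library far from the others, where chance flags about 1 in 20 groups. Apba2 measured 38.1 CPM in GV control replicate 1, where the other 7 controls ran from 57.3 to 73.1 CPM. Bicra measured 44.7 CPM in p20 Exosc10 cKO replicate 2_3, where the other 7 ran from 84.2 to 113 CPM. The Dis3 effect differed between MII and GV3h by -1.15 on the log2 scale for Apba2 and -1.34 for Elavl3. It differed between adult GV and p20 by -1.73 for Apba2, -1.54 for Elavl3 and -1.53 for Serpinb1c, each by a tested interaction in edgeR. With ERCC scaling both differences between MII and GV3h no longer passed (adjusted p = 0.19 for Apba2 and 0.057 for Elavl3), and neither did that of Serpinb1c between adult and p20 (0.084, and 0.13 with title-tag sums).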

How the results depend on the processing

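Counts here run over all 6 genes, including those picked on the libraries compared, for which they are a description. Of Dis3 cKO against control, the count of 6 members called lower stayed 6 at each poly(A) stage in the alternatives run. In adult libraries it was 0 with title-tag sums and ran from 4 to 6 when 1 library was left out, at 4 without any 1 control or without Dis3 cKO AM1713_1, AM1713_4 or AM1757_2, and at 5 without AM1713_2, AM1713_3 or AM1757_3. In p20 Dis3 cKO the count of 1 became 3 with ERCC scaling, 2 with DESeq2, 4 with only the 2 groups fitted and 0 with title-tag sums, and ran from 1 to 2 when 1 library was left out (2 without Dis3 cKO 2_3). In Exosc10 cKO the count of 1 became 0 with ERCC scaling and with title-tag sums. The 6 called lower in dcKO than in Dis3 cKO became 3 with ERCC scaling. Counts of members changed by stage under ERCC scaling were 5 instead of 3 (MII against GV3h and MII against GV, in both genotypes) and 6 instead of 0 (adult against p20 controls). Under that scaling most genes were called in either direction. In MII against GV3h these were 15578 of 17389 genes in controls and 15894 in Dis3 cKO. In MII against GV they were 15275 and 14538, and in adult against p20 controls 14869 of 17267. The count with a Dis3 effect that differed between GV3h and GV was 0, and became 1 with DESeq2 size factors and 2 with DESeq2, without MII Dis3 cKO replicate 15 or without GV control replicate 1. Between MII and GV it was 0 and became 2 with DESeq2 and without MII Dis3 cKO replicate 15, with no call in any alternative run for the genes not picked on these libraries (Serpinb1c and Bicra between GV3h and GV, Stat4 and Bicra between MII and GV). Between MII and GV3h it was 3 and became 1 with ERCC scaling. Signs turned with ERCC scaling for Apba2 in p20 Dis3 cKO (-0.28), Apba2 and Elavl3 in control MII against GV3h (-0.98 and -0.82), Stat4 in control MII against GV (-1.58), Serpinb1c and Bicra in GV3h against GV (0.0988 in control and 0.44 in Dis3 cKO), and Apba2, Cd160, Elavl3, Stat4 and Serpinb1c in adult against p20 controls (-1.62, -1.43, -1.52, -1.23 and -1.37). The difference of the Dis3 effect turned with it for Stat4 and Bicra between MII and GV (0.50 and 0.43) and for Bicra between MII and GV3h (0.47), the last also without MII Dis3 cKO replicate 15 (0.0787) and without GV control replicate 1 (0.01395). Among Dis3 cKO oocytes, differences near 0 turned for Stat4 in MII against GV with no filter (0.01997), without MII Dis3 cKO replicate 15 (0.0485) and without GV control replicate 1 (0.0362). In MII against GV3h, leaving out these 2 libraries gave a range from -0.0274 to 0.00666 for Apba2 and from -0.171 to 0.01099 for Elavl3. The cause was not tested. Title numbers did not pair the libraries: deviations of same-numbered libraries correlated between -0.121 and 0.166 in poly(A) and between -0.225 and 0.182 in p20 groups, and at most 2 of 8 libraries correlated best with their own number. A replicate block left the counts at 6 at each poly(A) stage and at 1, 1 and 6 for p20 Dis3 cKO, Exosc10 cKO and dcKO. Leaving out 1 RiboMinus library, chosen after seeing the data, kept 550 of 576 single-gene results. Serpinb1c and Bicra in MII eggs rest on counts near 0, which depth limits.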
